A study of Mus musculus with 6 samples.

Results

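A group of 41 named mouse genes was examined, nearly all of them neighbours on chromosome 6 between Cul1 and Plekha8, with their expression in macrophages with and without the aldehyde dehydrogenase ALDH2. The genes were chosen by their place around Cycs and Hnrnpa2b1, where several neighbours had differed by at least 1.5-fold in this same comparison of these same 6 libraries, and the proton pump gene Atp6v0e2, which lies in the stretch, was left out of it. The levels and fold changes of the 41 genes are therefore a description, and no test of them is offered. Of the 16871 genes in the files, 40 of the 41 were listed in at least 1 library, and 37 had enough counts to enter the fit over all genes. The RefSeq order of mouse assembly GRCm38 placed 40 of the 41 on chromosome 6 between Cul1 and Plekha8 and placed Klhl7 on chromosome 5. Klhl7 was kept as a listed gene and left out of every statement about position.

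All 6 libraries came from bone marrow-derived macrophages of C57BL/6 mice at an age of 8 weeks. Marrow cells were grown into macrophages over 7 days and then exposed to oxidised low-density lipoprotein (oxLDL), the modified lipoprotein that fills foam cells in atherosclerotic plaques. The 3 LKO libraries, the control group, carried a knockout of the LDL receptor alone. The 3 DKO libraries carried the same LDL receptor knockout and a knockout of ALDH2, the mitochondrial enzyme that clears acetaldehyde and lipid aldehydes. Both groups thus lack the LDL receptor and both received oxLDL, so neither the receptor's effect nor that of oxLDL can be read from them. The labels do not state how the knockouts were made, how the mice were bred, or whether the libraries came from separate animals, so the spread between libraries may be technical. Loss of ALDH2 and any other difference between the mice of the 2 genotypes cannot be told apart here.

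The genes on the list share a neighbourhood rather than a pathway. One end holds Cul1, the scaffold of the SCF ubiquitin ligases, and Ezh2, the subunit of Polycomb repressive complex PRC2 that methylates histone H3, followed by a group of C2H2 zinc finger genes. Many proteins of that kind carry a KRAB domain and silence chromatin through the corepressor TRIM28 and HP1 proteins. Next come the GIMAP GTPases, best known from lymphocyte survival, the membrane proteins Tmem176a and Tmem176b and the lysosomal glycoprotein gene Gpnmb, which lipid-laden macrophages express strongly. The remainder includes RNA-binding proteins, cytochrome c, gasdermin E, the HP1 protein gene Cbx3, the integrin adaptor Skap2 and the transcription factor Creb5.

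Promoter sequences are shown for 6 of these genes, because they include 2 pairs of genes read in opposite directions from starts less than 1000 bases apart, and 2 of the genes with the largest differences. They are RefSeq sequences of assembly GRCm38.p6, whereas the submitters' processing notes name build mm8, and no coordinate was taken from the expression files. Capitals mark CG dinucleotides in 4 of the 5 sequences. In the Creb5 sequence they mark matches, on either strand, to GGGCGG (the GC box), CACGTG (an E-box) and TGACGTCA (the cAMP response element, CRE), of which the last 2 overlap there.
Between the nearest starts of Tmem176b and Tmem176a (chr6:48841375-48841482, plus strand): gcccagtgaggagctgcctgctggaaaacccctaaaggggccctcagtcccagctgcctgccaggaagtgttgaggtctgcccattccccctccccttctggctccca
Hnrnpa2b1, 250 bases before its first listed start (chr6:51469895-51470144, minus strand): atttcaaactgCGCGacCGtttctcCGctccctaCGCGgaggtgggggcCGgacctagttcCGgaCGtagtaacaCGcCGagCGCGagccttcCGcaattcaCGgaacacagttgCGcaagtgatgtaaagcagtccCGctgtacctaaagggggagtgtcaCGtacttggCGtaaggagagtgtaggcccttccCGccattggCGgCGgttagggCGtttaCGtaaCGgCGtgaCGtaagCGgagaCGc
Cbx3, 250 bases before its first listed start (chr6:51470366-51470615, plus strand): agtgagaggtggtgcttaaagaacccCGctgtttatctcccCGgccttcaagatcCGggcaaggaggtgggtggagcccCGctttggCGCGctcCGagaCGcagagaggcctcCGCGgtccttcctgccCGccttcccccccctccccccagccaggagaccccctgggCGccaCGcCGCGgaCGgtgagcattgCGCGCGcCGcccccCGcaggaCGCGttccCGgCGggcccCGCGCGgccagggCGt
Gpnmb, 250 bases before its start (chr6:49036268-49036517, plus strand): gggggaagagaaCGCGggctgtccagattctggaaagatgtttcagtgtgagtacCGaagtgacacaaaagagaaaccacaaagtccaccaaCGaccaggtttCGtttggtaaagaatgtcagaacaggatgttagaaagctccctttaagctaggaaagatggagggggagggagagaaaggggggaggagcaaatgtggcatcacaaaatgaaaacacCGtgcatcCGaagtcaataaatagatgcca
Creb5, 250 bases before its first listed start (chr6:53287053-53287302, plus strand): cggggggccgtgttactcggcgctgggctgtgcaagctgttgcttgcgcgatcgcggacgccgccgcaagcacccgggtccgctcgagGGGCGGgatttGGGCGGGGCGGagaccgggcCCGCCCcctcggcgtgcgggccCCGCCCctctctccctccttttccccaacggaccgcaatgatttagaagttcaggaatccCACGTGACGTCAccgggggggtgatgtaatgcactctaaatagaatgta
The 108 bases between the Tmem176b and Tmem176a starts held 0 CG dinucleotides, but they are shorter than the 250-base windows. The first listed 250-base windows of Tmem176b and Tmem176a held 1 each, those of Hnrnpa2b1 and Cbx3 29 each, Creb5 28 and Gpnmb 7. The median over all 32851 upstream windows of 250 bases was 6. Over the first listed windows of the 37 list genes with an entry it was 17, with a range from 1 to 42. The 2 medians are of unlike sets: the first takes every listed start of every gene, the second 1 start per gene. Later starts of a list gene can differ, and the second listed window of Creb5 held 4. Zfp862-ps, Repin1, Malsu1 and Cpvl had no entry. The window of Creb5 held 5 GC boxes, 1 E-box and 1 CRE, while 32.7% of all windows held a GC box, 6.02% the E-box and 1.55% the CRE. A CRE also stood in the first windows of Tra2a and Cycs. These are matches of letters, and the files do not say from which start the reads of a gene came.

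The labels were checked on the deleted gene. Aldh2 averaged 241 ± 6.83 FPKM over the LKO libraries and 7.13 ± 0.181 over the DKO libraries (SD, n = 3 per group). FPKM counts fragments per unit of transcript length and of library size, as scaled by the authors. The log2 fold change was −5.01, with an edgeR adjusted p = 4e-24. Permuting the 3 and 3 labels exactly (two-sided) gave p = 0.1, which is the lower limit of such a design. The libraries held between 10760625 and 10987584 expected counts. The macrophage label was checked on 12 marker genes, whose summed level was between 11200 and 11900 FPKM in LKO and between 12500 and 13700 in DKO, most of it from Lyz2, and all 12 were listed in every library. Of the 12, 6 were higher in DKO, 1 was lower and 5 did not pass.

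Of the 37 list genes tested, 14 lay below an edgeR adjusted p of 0.05, which is meant by passing throughout, 2 of them higher and 12 lower in DKO, and 23 did not pass. Over all 11809 genes tested, 14.3% passed, 7.42% higher and 6.88% lower. Because the list was drawn from this comparison, nothing is read from the distance between these shares. The label of the list as a cluster of changed genes covers only part of it: 23 of its 37 tested genes, Cul1, Cycs and Cbx3 among them, did not pass. The median log2 fold change was −0.11 over the 37 genes and 0.00 over all genes tested. Past 1.5-fold and past the threshold were 7 of the 37, against 3.38% of all genes tested. In FPKM, 18 of the 37 had every DKO library below every LKO library (16% of all tested), 5 had every DKO library above (13.6% of all), and 14 overlapped.

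**Figure D1:**
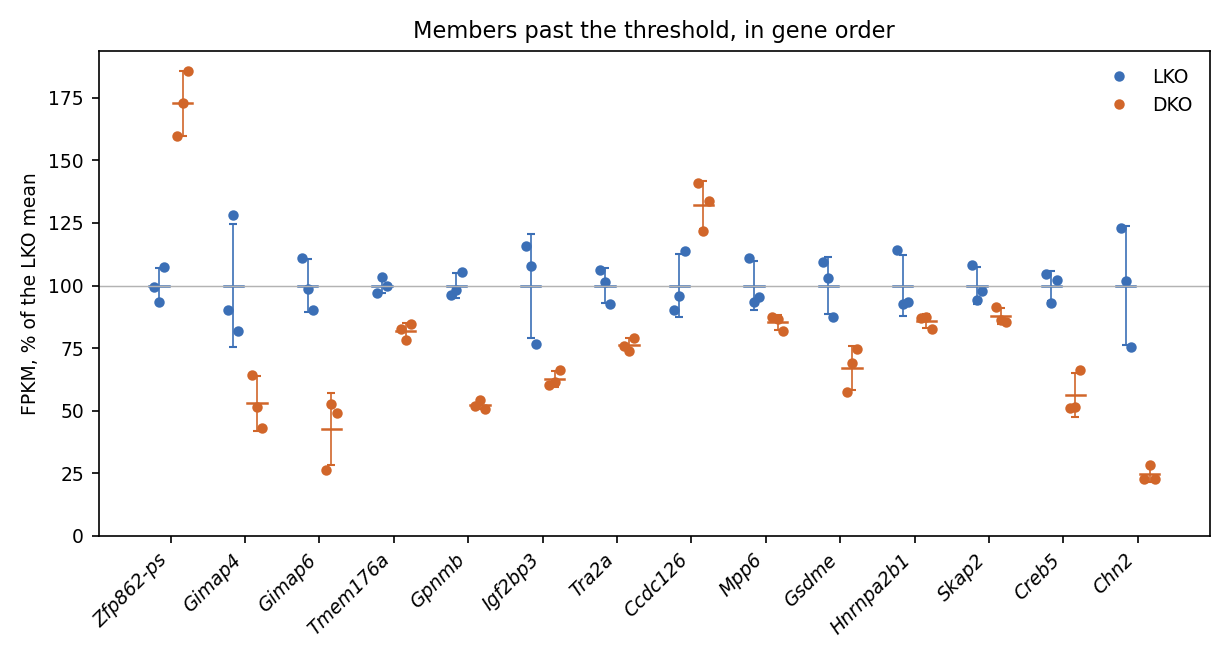
Level of the 14 list genes past the threshold in each library, as a percent of the mean of the 3 LKO libraries, in gene order from left to right; points are libraries, bars are means ± SD. Chn2 had the lowest DKO levels relative to LKO (24.6% of the LKO mean), and Zfp862-ps and Ccdc126 lay above LKO.

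Most of the zinc finger genes did not pass, which does not show that their levels were equal. Of 10 genes grouped under this name, all tested, 1 was higher in DKO, none was lower and 9 did not pass. Their median log2 fold change was −0.01, from values in both directions between −0.57 and 0.80. Krba1 was counted in this group, and whether it encodes zinc fingers was not examined. The one that passed, Zfp862-ps (NCBI gene 58894), is annotated as a pseudogene. It was at 0.85, 0.80 and 0.92 FPKM in LKO replicates 1 to 3 and at 1.37, 1.48 and 1.59 in DKO. Every DKO library was above every LKO library, and the log2 fold change was 0.80 ± 0.14 (SE). Its counts were partly fractional (reads split among genes give such values), and as a pseudogene it may share reads with related copies, so its value is uncertain.

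The zinc finger genes that did not pass differed in both directions. Zfp783 was at 1.01, 0.71 and 0.89 FPKM in LKO and 0.62, 0.51 and 0.61 in DKO. Its libraries did not overlap, its log2 fold change was −0.57 ± 0.21 (SE), and it passed only without LKO replicate 2, at −0.70. Repin1, a zinc finger protein first described at replication origins, was at 4.87, 5.71 and 5.64 FPKM in LKO and 4.66, 4.38 and 4.38 in DKO (log2 fold change −0.26), and it passed only without LKO replicate 1, at −0.33. Zfp398 was at 3.33 ± 0.518 and 2.78 ± 0.119 FPKM (SD), with DKO below LKO throughout. Zfp777 and Zfp956 had all DKO libraries above all LKO libraries, at log2 fold changes of 0.26 and 0.19. Zfp746, which encodes PARIS, a repressor of the mitochondrial regulator gene Ppargc1a, was at 8.24 ± 0.284 and 9.17 ± 0.623 FPKM, with overlapping libraries. Zfp282, Zfp212 and Krba1, the last only grouped with these genes, also overlapped, with log2 fold changes of −0.06, −0.07 and 0.03.

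Cul1 and Ezh2, the first 2 genes of the stretch, and Klhl7, an adaptor of CUL3 ubiquitin ligases, did not pass. Cul1 was at 29.46, 27.31 and 27.97 FPKM in LKO and 29.64, 29.59 and 29.09 in DKO, and the ranges overlapped. Ezh2 was at 5.20, 5.21 and 4.55 in LKO and 4.09, 4.38 and 4.45 in DKO, with each DKO library lower than each LKO library (log2 fold change −0.20 ± 0.11 SE). Klhl7 was at 5.34 ± 0.207 and 5.01 ± 0.220 FPKM.

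Of 6 genes of membrane proteins and small GTPases, 5 were tested and 4 passed, all lower in DKO, and Tmem176b did not pass. Gpnmb (NCBI gene 93695), a glycoprotein of phagocytic and foamy macrophages, was at 53.91, 55.09 and 59.12 FPKM in LKO and at 29.05, 30.39 and 28.47 in DKO. The groups lay far apart compared with their spread, and the DKO mean was 52.3% of the LKO mean (log2 fold change −0.92 ± 0.05 SE). Tril, an accessory protein of the endotoxin receptor TLR4, was listed in no library.

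Gimap4 and Gimap6 were low in all libraries. Gimap4 was at 1.30, 1.85 and 1.18 FPKM in LKO and 0.93, 0.74 and 0.62 in DKO, with mean counts of 24.7 and 12.0. Gimap6 was at 1.43, 1.27 and 1.16 FPKM in LKO and 0.34, 0.68 and 0.63 in DKO, with mean counts of 22.3 and 9.67. In both genes all DKO libraries were below all LKO libraries, and the log2 fold changes were −1.04 ± 0.30 and −1.20 ± 0.32 (SE). Gimap4 did not pass without LKO replicate 2 (−0.87) or DKO replicate 3 (−0.87), nor in DESeq2 (−1.05) or limma on log2(FPKM + 1), where its difference was −0.46. Gimap6 did not pass without LKO replicate 1 (−1.12) or DKO replicate 1 (−0.95), nor in DESeq2 (−1.21).

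The GIMAP genes are typical of lymphocytes, and B-cell markers were lower in the same libraries. Of 14 lymphocyte markers 7 were tested, and 5 were lower in DKO (71.4%, against 6.88% of all genes tested) and none higher. Their summed level was between 112 and 125 FPKM in LKO and between 86.9 and 95.7 in DKO, most of it from the B-cell gene Cd79b (96.0 ± 3.87 and 77.6 ± 2.23 FPKM). The T-cell gene Cd3d did not pass and was at 0.89, 0.67 and 1.14 FPKM in LKO and 1.17, 1.72 and 1.40 in DKO, with all DKO libraries above all LKO libraries. Cd4, also on the lymphocyte list, was among the 5 lower markers, at 7.61 ± 0.195 FPKM in LKO and 6.35 ± 0.473 in DKO (log2 fold change −0.25). Cd8a did not pass (log2 fold change 0.09). No direction is read for T cells from these genes, because Cd3d and Cd8a did not pass. The cells that the Cd4 reads came from were not tested. Cd3e and Cd3g were too low to test. These 2, Cd3d, Cd4, Cd8a and Cd79b were named after their values were seen. Trac, the constant gene of the T-cell receptor alpha chain, was listed in no library. Among the markers that were lower, the B-cell gene Ms4a1 had the smallest p. The part of lymphocytes in the GIMAP values was not tested, and in such bulk samples fewer cells of a type and less RNA per cell cannot be told apart. Of the other 6 GIMAP genes, 3 were tested and none passed in edgeR (2 had an unadjusted p below 0.05), and none in DESeq2. Gimap8 and Gimap3 had log2 fold changes of −0.95 and −0.88 at low counts, and Gimap1 had 0.08.

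Tmem176a and Tmem176b, multi-pass membrane proteins of myeloid cells, were the most abundant genes on the list. Tmem176a was at 1066.88, 1136.39 and 1096.39 FPKM in LKO and 908.18, 860.63 and 929.04 in DKO. Tmem176b was at 1283.28, 1413.05 and 1402.19 in LKO and 1267.44, 1275.27 and 1272.99 in DKO. Both had all DKO libraries below all LKO libraries, Tmem176a by a log2 fold change of −0.28 ± 0.04 (SE), which passed, and Tmem176b by −0.11 ± 0.04, which passed only without LKO replicate 1 (−0.15). The ratio of Tmem176a to Tmem176b within a library does not depend on depth, and it was 0.831, 0.804 and 0.782 in LKO and 0.717, 0.675 and 0.730 in DKO. The ratios did not overlap between the groups; they come from the values that the list was chosen on and are a description.

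The other divergent pair joins an RNA-binding protein and a chromatin protein. Hnrnpa2b1 encodes hnRNP A2/B1, an RNA-binding protein of splicing and RNA transport, and Cbx3 encodes HP1 gamma, a reader of methylated histone H3. Hnrnpa2b1 was at 127.55, 103.66 and 104.36 FPKM in LKO and 97.55, 97.83 and 92.38 in DKO, with LKO replicate 1 well above the other LKO libraries. Cbx3 was at 30.03, 27.84 and 27.08 in LKO and 29.82, 29.37 and 26.19 in DKO, and the groups overlapped. The log2 fold changes were −0.21 ± 0.06 and 0.02 ± 0.07 (SE). The ratio of Hnrnpa2b1 to Cbx3 was 4.25, 3.72 and 3.85 in LKO and 3.27, 3.33 and 3.53 in DKO, again a description without overlap. Hnrnpa2b1 did not pass without LKO replicate 1 (−0.11), DKO replicate 1 (−0.22), DKO replicate 2 (−0.22) or DKO replicate 3 (−0.19), nor in limma on log2(FPKM + 1), which gave −0.21.

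**Figure D2:**
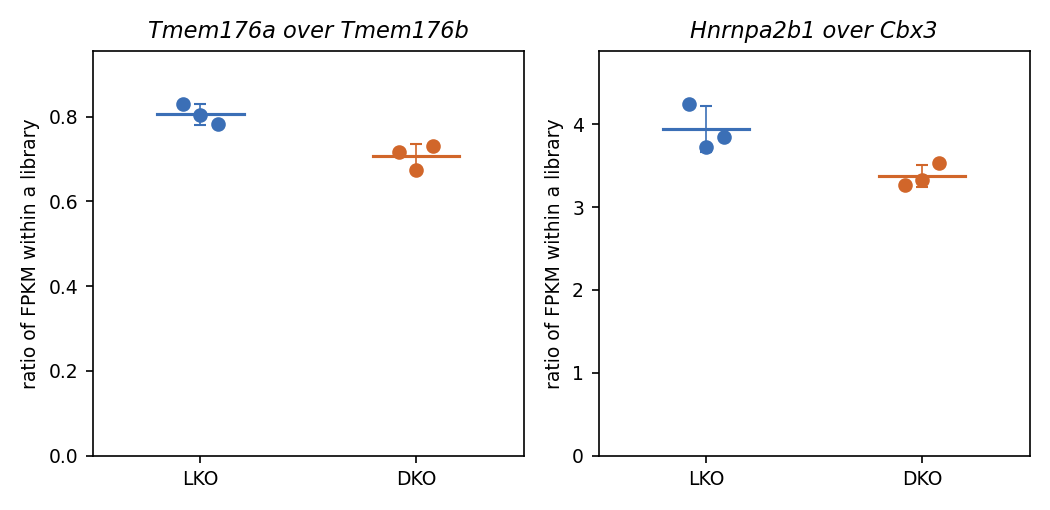
Ratio of FPKM within each library for the 2 divergent pairs, Tmem176a over Tmem176b and Hnrnpa2b1 over Cbx3; points are libraries, lines are means and bars are SD (n = 3). In both panels each DKO library lies below each LKO library, with means of 0.806 and 0.707 on the left and 3.94 and 3.38 on the right.

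Among the RNA-binding proteins and regulators of transcription, 6 of 7 genes were tested, 4 were lower in DKO and none was higher. Creb5 (NCBI gene 231991), a CREB/ATF transcription factor, was at 3.43, 3.06 and 3.36 FPKM in LKO and 1.68, 1.69 and 2.18 in DKO. Its DKO mean was 56.3% of the LKO mean, with no overlap (log2 fold change −0.85 ± 0.11 SE), although its counts were partly fractional. Tra2a, a splicing regulator, was at 22.85, 21.84 and 19.91 FPKM in LKO and 16.37, 15.86 and 17.00 in DKO. The groups did not overlap, and the log2 fold change was −0.38 ± 0.07 (SE).

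Igf2bp3, an mRNA-binding protein of fetal and tumour cells, was at 1.56, 1.45 and 1.03 FPKM in LKO and 0.81, 0.83 and 0.89 in DKO. LKO replicate 3 came closest to the DKO libraries, and the log2 fold change was −0.66 ± 0.18 (SE). The gene did not pass without LKO replicate 1 (−0.55), LKO replicate 2 (−0.61), DKO replicate 1 (−0.63) or DKO replicate 2 (−0.65), nor in DESeq2 (−0.67) or limma on log2(FPKM + 1), which gave −0.34. Jazf1, a cofactor of the NuA4 acetyltransferase complex, was at 2.30, 2.13 and 1.99 FPKM in LKO and 1.39, 1.74 and 1.56 in DKO. It did not pass despite the absence of overlap. Nfe2l3, which encodes the transcription factor NRF3, was listed in no LKO library and at no more than 0.07 FPKM in DKO, and was not tested.

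Of 4 signalling and scaffold genes, 3 were lower in DKO. Chn2 (NCBI gene 69993), beta-chimaerin, which switches off the GTPase Rac, differed most of all tested genes on the list. It was at 1.73, 1.43 and 1.06 FPKM in LKO and 0.32, 0.40 and 0.32 in DKO, from mean counts of 48.3 and 12.0. The lowest LKO library was still well above the highest DKO library, and the log2 fold change was −2.0 ± 0.26 (SE), a 4.01-fold lower level.

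Skap2, an adaptor through which Src-family kinases act on integrins, was at 133.70, 116.14 and 120.63 FPKM in LKO and 113.14, 106.61 and 105.73 in DKO. Mpp6, a membrane-associated scaffold, was at 20.47, 17.22 and 17.60 in LKO and 16.10, 15.97 and 15.09 in DKO. In both genes LKO replicate 1 was the highest library, and the log2 fold changes were −0.18 ± 0.05 and −0.22 ± 0.07 (SE). Skap2 did not pass without LKO replicate 1 (−0.12), DKO replicate 2 (−0.16) or DKO replicate 3 (−0.16), nor in limma on log2(FPKM + 1), which gave −0.18. Mpp6 did not pass without LKO replicate 1 (−0.14), DKO replicate 1 (−0.24), DKO replicate 2 (−0.23) or DKO replicate 3 (−0.19), nor in DESeq2 (−0.22), edgeR without a count filter (−0.22) or limma on log2(FPKM + 1), which gave −0.21. Tax1bp1, an autophagy receptor and partner of the NF-kB inhibitor A20, was at 44.5 ± 2.14 and 42.9 ± 0.209 FPKM, with overlapping libraries.

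Of 4 genes tied to mitochondria and cell death, 1 was lower in DKO and 3 did not pass. Gsdme, gasdermin E, which forms membrane pores after cleavage by caspase-3, was at 3.26, 3.07 and 2.61 FPKM in LKO and 1.71, 2.06 and 2.23 in DKO. The groups did not overlap, and the log2 fold change was −0.57 ± 0.16 (SE). It did not pass without LKO replicate 1 (−0.50), LKO replicate 2 (−0.54), DKO replicate 1 (−0.46) or DKO replicate 2 (−0.59), nor in DESeq2 (−0.57) or limma without a filter (−0.41). Cycs, cytochrome c, was at 31.58, 26.96 and 26.70 FPKM in LKO and 28.78, 26.59 and 22.85 in DKO, with overlap. Its counts were partly fractional, and cytochrome c has processed pseudogenes, so reads may be shared. Malsu1, an assembly factor of the mitochondrial ribosome, was at 9.65 ± 0.838 and 9.63 ± 1.77 FPKM, and Hibadh, an enzyme of valine breakdown, at 33.6 ± 1.96 and 34.4 ± 3.82.

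None of the lipid and secretory genes passed, of which 4 of 6 were tested. Plekha8, the glycolipid transfer protein FAPP2 of the Golgi, was at 2.38, 1.94 and 2.59 FPKM in LKO and 2.65, 2.87 and 2.92 in DKO. All DKO libraries were above all LKO libraries, with a log2 fold change of 0.30 ± 0.10 (SE), and it passed only without LKO replicate 3, at 0.39. Snx10, a sorting nexin that osteoclasts need, was at 26.9 ± 2.19 and 26.9 ± 1.11 FPKM. Osbpl3, a relative of the oxysterol-binding protein, was at 0.430 ± 0.0458 and 0.467 ± 0.00577, and Fkbp14, a prolyl isomerase of the endoplasmic reticulum, at 0.397 ± 0.150 and 0.357 ± 0.0379. Cpvl and Scrn1 were listed at no more than 0.06 and 0.10 FPKM in any library and were not tested. Ccdc126, a coiled-coil protein, was the other gene higher in DKO, at 7.54, 8.04 and 9.54 FPKM in LKO and 11.81, 10.20 and 11.19 in DKO. Its log2 fold change was 0.41 ± 0.09 (SE), and it did not pass in limma without a filter (0.37).

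The counts were also taken along the stretch. From Cul1 to Repin1, 12 list genes were tested, 1 was higher and none lower, with a median log2 fold change of −0.01. From Gimap4 to Gpnmb, 4 of 5 were lower, with a median of −0.92. From Malsu1 to Skap2, 6 of 12 tested were lower and 1 higher, with a median of −0.14. From Hibadh to Plekha8, 2 of 7 tested were lower, Creb5 and Chn2. These 4 divisions were chosen after the values were seen.

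**Figure D3:**
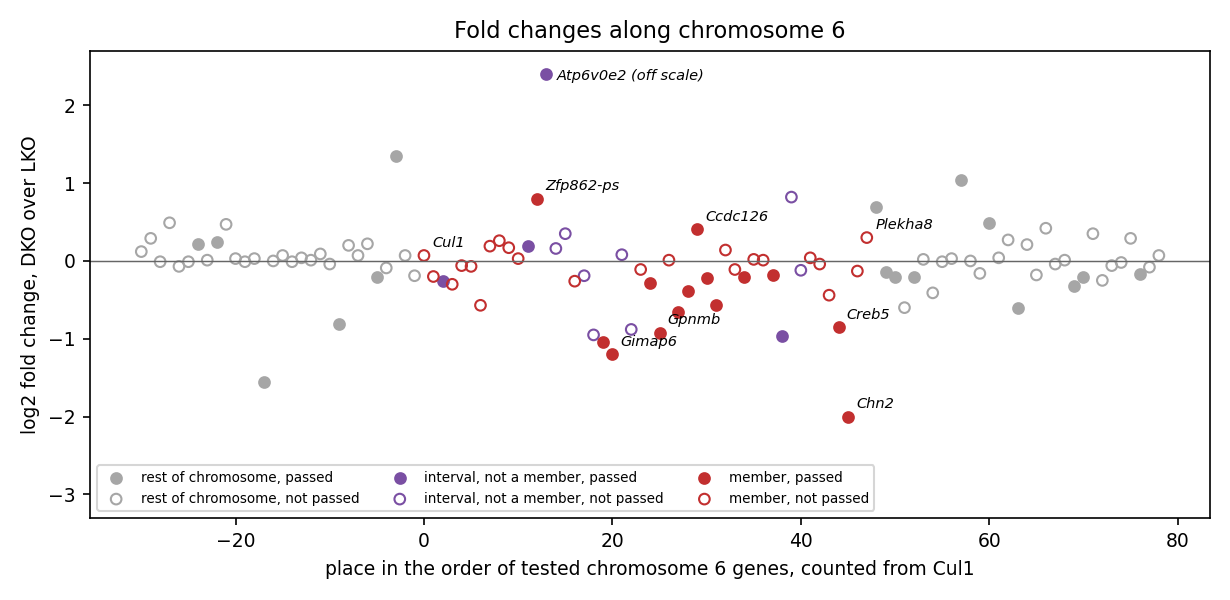
Log2 fold change of DKO over LKO for tested chromosome 6 genes in their order along the chromosome, counted from Cul1; filled points passed the threshold. Red points are list genes, purple points other genes between Cul1 and Plekha8, grey points the neighbours on both sides; Atp6v0e2 is drawn at the upper edge because it had no LKO count.

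Unlisted neighbours passed in both directions. RefSeq places 266 genes between Cul1 and Plekha8, and apart from the list 39 of them were in the files and 12 were tested. Of these 12, 2 were higher, Atp6v0e2 and Zfp467, and 2 were lower. Pdia4, a disulphide isomerase of the endoplasmic reticulum, was among the lower genes, at 67.0 ± 3.64 and 55.6 ± 1.75 FPKM. Zfp467, a zinc finger gene, was at 24.0 ± 1.64 and 28.3 ± 0.726 FPKM. Among the 10 tested genes before Cul1, Tcaf1 was higher and Zyx and Clec5a were lower. Among the 10 after Plekha8, Mturn and Fkbp9 were higher and Znrf2, Nod1 and Gars were lower. Genes that passed were thus found on both sides of the stretch as well as in it, 3 of the 10 before Cul1 and 5 of the 10 after Plekha8. Since 14.3% of all genes tested passed, finding some on each side is not remarkable by itself. Nothing is read from so few genes.

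The share of genes that passed was 37.5% of 48 tested genes between Cul1 and Plekha8, 19.0% of 527 on the rest of chromosome 6 and 14.3% of all. Chromosome 6 as a whole had 20.5%, ahead of chromosome 11 with 17.6% and chromosome 1 with 17.0%. The stretch was found in this comparison, so its own share supports nothing. The share on the rest of the chromosome was 10.4% higher and 8.54% lower.

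**Figure D4:**
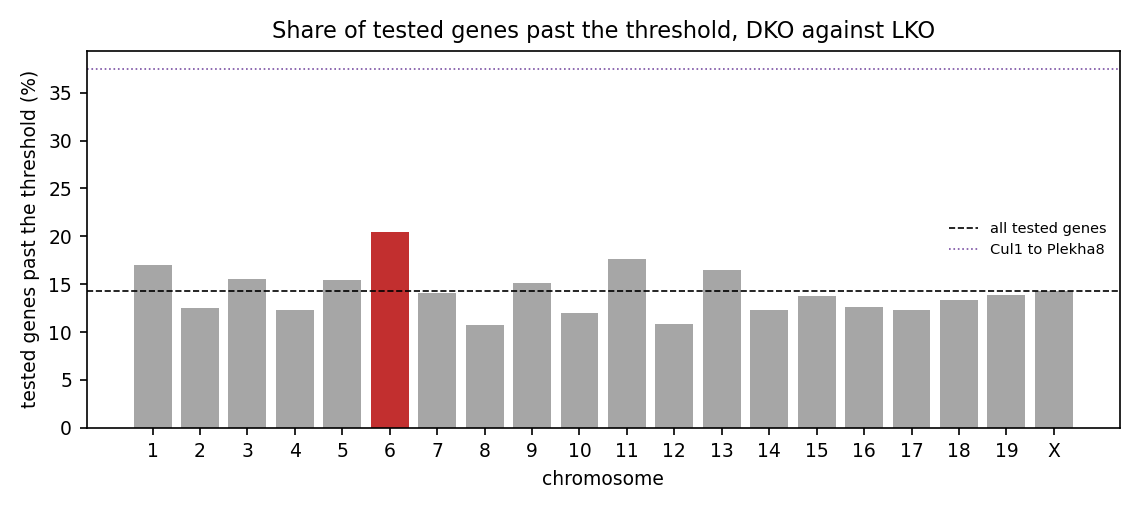
Percent of tested genes past the edgeR threshold on each chromosome (bars), over all tested genes (dashed line, 14.3%) and between Cul1 and Plekha8 (dotted line, 37.5%). Chromosome 6 (red) had 20.5%, and the other chromosomes lay between 10.7% and 17.6%.

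Zinc finger genes elsewhere in the genome were compared with those on the list. Of 297 tested genes named Zfp and a number outside the stretch, 4 were higher and 10 lower in DKO, which is 4.71%, with a median log2 fold change of −0.02. Of 9 such genes within the stretch, 1 passed, the unlisted Zfp467.

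The transcript length that the files give per gene and library changes where a gene's reads are assigned to transcripts of different lengths, and the list was not drawn from it. Of the 40 genes in the files, 19 had several transcripts, and in 11 the length varied by at least 1 base between libraries. In Zfp398 alone of these 11 the groups did not overlap, against 9.99% of the 3322 tested genes whose length varied. Zfp398 was at 3433.40, 3478.00 and 3476.77 bases in LKO and at 3285.03, 3367.52 and 3364.57 in DKO, so each DKO library had the shorter mean transcript. Gimap4 varied between 1292.44 and 1727.32 bases, with both extremes in DKO. Creb5 varied between 5051.44 and 5767.36 bases, again with both extremes in DKO.

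Partners and relatives of the list genes were followed in 17 lists of 155 names, of which 135 genes were tested. Of these, 17 were higher and 14 lower in DKO, or 23.0% against 14.3% of all genes tested (7.42% higher and 6.88% lower), and their median log2 fold change was −0.02. The 6 GIMAP partners lie inside the stretch. Other partners, Mitf, Uba3, Arhgap25 and Fkbp9 among them, lie elsewhere on chromosome 6. The partner share is thus not separate from that of the chromosome. In PRC2, the complex of Ezh2, 2 of 10 genes rose and none fell. Jarid2, which brings PRC2 to chromatin, rose from 11 ± 0.530 to 14.1 ± 0.391 FPKM (log2 fold change 0.37, edgeR adjusted p = 8e-05), and Ezh1, the paralog of Ezh2, from 20.2 ± 1.19 to 22.4 ± 0.743. Of 11 KRAB corepressor and HP1 genes, Cbx5, the HP1 alpha gene, fell by 0.20 on the log2 scale and Morc3 rose by 0.16, while Trim28 did not pass. Of 15 cullin and SCF partners of Cul1, Uba3 fell and 14 did not pass.

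Relatives of the RNA-binding proteins and of Creb5 were counted next. Of 15 hnRNP and SR splicing genes 3 fell and none rose: Srsf3 (log2 fold change −0.19), Hnrnpa3 (−0.17) and Srsf1 (−0.17), the last named after its values were seen. Igf2bp2, the paralog of Igf2bp3, fell from 24.8 ± 0.981 to 19.2 ± 0.946 FPKM (log2 fold change −0.36, edgeR adjusted p = 7.72e-05). Of 8 tested CREB and ATF relatives of Creb5, none passed in edgeR (0 had an unadjusted p below 0.05), and none in DESeq2.

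Around Gpnmb, its regulator Mitf rose from 10.6 ± 0.732 to 14.3 ± 0.500 FPKM (log2 fold change 0.44, edgeR adjusted p = 2.43e-05), while Cd44, a reported receptor of Gpnmb, fell from 26.5 ± 1.73 to 20.5 ± 0.715 (edgeR adjusted p = 8.03e-05). The other 5 genes of that list did not pass. Of 6 tested MS4A genes, distant relatives of the Tmem176 genes, 4 rose and none fell. Ms4a7 rose from 526 ± 13.7 to 592 ± 16.8 FPKM and Ms4a6b from 181 ± 2.63 to 203 ± 7.55, and Ms4a4a and Ms4a4c, named after their values were seen, rose by log2 fold changes of 0.20 and 0.19.

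Genes of cell death and autophagy moved in both directions. Ninj1, which ruptures the membrane of dying cells, rose from 156 ± 9.34 to 227 ± 13.2 FPKM (log2 fold change 0.55, edgeR adjusted p = 1.85e-07), and Casp1 fell by 0.20 on the log2 scale. In the apoptosome list around Cycs, 1 of 10 genes rose, Bak1 (52.7 ± 5.77 to 63.4 ± 2.60 FPKM), and 1 fell, Bcl2 (0.557 ± 0.153 to 0.277 ± 0.0586). Among 8 partners of Tax1bp1, Sqstm1 (log2 fold change 0.23) and Calcoco1 (0.23) rose and Optn (−0.40) and Tnfaip3 (−0.21), which encodes A20, fell; Calcoco1 and Tnfaip3 were named after their values were seen.

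The partners of Fkbp14 rose where they passed. Of 7 tested, Fkbp10 went from 0.597 ± 0.145 to 1.29 ± 0.210 FPKM, Fkbp9 from 1.23 ± 0.320 to 2.51 ± 0.211, and Plod1, named after its values were seen, from 51.2 ± 3.37 to 57.3 ± 0.511. Fkbp9 is also 1 of the 10 genes after Plekha8. These are collagen-folding genes, and stromal markers rose in the same libraries: 7 of 9 tested were higher and none lower, with a summed level between 45.5 and 52.0 FPKM in LKO and between 73.4 and 98.4 in DKO. Each of the 12 stromal markers was listed in at least 1 library. The higher stromal markers were 77.8% of those tested, against 7.42% of all genes tested. Neutrophil markers were lower in 9 of 15 tested (60.0%, against 6.88% of all genes) and higher in none. Their summed level was between 603 and 664 FPKM in LKO and between 387 and 429 in DKO. The part of these cells in the values of the list genes was not tested.

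In the remaining lists, Osbpl9 rose among 8 relatives of Osbpl3 and Keap1 rose among 8 relatives of Nfe2l3 (12.5% of each list). Fyb fell among 7 partners of Skap2 (14.3%), and Arhgap15 and Arhgap25 fell among 6 Rac genes around Chn2 (33.3%). Over all genes tested 14.3% passed, and nothing is read from so few genes in short lists.

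Among the list genes LKO replicate 1 often stood highest. It was the top LKO library for 18 of the 37 tested genes (48.6%), against 37.1% of all tested genes. The median coefficient of variation of the list genes was 8.03% in LKO and 4.94% in DKO. Without LKO replicate 1, 8 list genes were lower and 2 higher, but the lower genes were not all the same ones. Gimap6, Igf2bp3, Mpp6, Gsdme, Hnrnpa2b1 and Skap2 no longer passed, while Repin1 and Tmem176b passed only then. The 6 genes that passed in all 14 other fits were Zfp862-ps, Tmem176a, Gpnmb, Tra2a, Creb5 and Chn2.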

How the data were processed

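RNA was sequenced from 3 LKO and 3 DKO libraries, grouped by their titles. Each deposited table gives 3 values for a gene, per the file headers: its expected count, its FPKM and its transcript length in bases. The deposited expected counts estimate the reads of a gene and carry no scaling. The FPKM values were scaled by the authors for length and depth, according to the file headers. The submitters' processing notes list Bowtie 0.12.2 and build mm8. Nothing on the counting tool, strand setting or read length is given in the sources used here. Genes that a table does not list were set to 0; the lowest listed FPKM is 0.01.

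RefSeq on GRCm38 gave symbols and gene order for 16832 of 16871 gene numbers. Counts were rounded and tested with the quasi-likelihood test of edgeR 4.0.16 in R 4.3.3 (filterByExpr, TMM, no block); p-values were adjusted by Benjamini-Hochberg over 11809 genes. Standard errors come from the fold change and its F statistic. Any 2 libraries of a group differed beyond sampling noise (chi-square per degree of freedom at least 1.68 over genes with 20 or more reads), so none was merged. Genes named are the 41 list genes, Aldh2, genes that passed between Cul1 and Plekha8 or among 10 on each side, up to 2 of smallest p in each partner list, and the marker of smallest p in a list or listed in no library. The 41 genes and all other lists were chosen with earlier results of these data known. Some genes that the naming rule takes are not reported here.

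The alternatives were DESeq2 1.42.0, its size factors within edgeR, no count filter, a replicate block, limma 3.58.1 on log2(FPKM + 1) where 3 or more libraries reached an FPKM of 1, pseudocounts of 0.1 and 5, limma unfiltered, and each library left out. The pseudocount makes limma's differences smaller for low genes. The main edgeR fit, DESeq2 and limma with a pseudocount of 1 were tested on simulated counts, which for limma were scaled to library size only. The other settings were not tested in this way. In the simulated counts edgeR recovered 54% of 1.25-fold, 70% of 1.5-fold and 94% of 2-fold changes, and DESeq2 recovered 40% of 1.25-fold changes. A gene that did not pass may thus still differ by a small fold.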

Additional observations from a re-analysis of the deposited data

How the results depend on the processing

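The replicate numbers did not pair the libraries: correlations of the deviations of same-numbered libraries were 0.0179, −0.056 and −0.0273, and with the replicate block 1553 genes passed, with the same counts of 2 list genes higher and 12 lower. Of the 37 list genes tested, none that passed changed direction under any alternative run. List genes lower in DKO numbered 7 in DESeq2, 7 in limma with each of the pseudocounts 1, 0.1 and 5, and 6 in limma without a filter, where 1 was higher; leaving out 1 library gave between 7 and 12 lower and between 2 and 3 higher, the lowest without DKO replicate 1 or 2. All genes called numbered 1119 in limma on log2(FPKM + 0.1) and 807 without a filter, and between 1175 and 1481 with 1 library left out. Partner genes called numbered 18 in limma with each pseudocount, 11 without a filter, and between 15 and 24 with 1 library left out, the lowest without DKO replicate 3 and 18 without DKO replicate 1. Zinc finger genes called elsewhere numbered 6 in DESeq2, 9, 9 and 8 in limma with pseudocounts of 1, 0.1 and 5, 6 without a filter, and between 5 and 13 with 1 library left out: 8 without LKO replicate 3, 9 without DKO replicate 1 and 5 without DKO replicate 3. The cause of these shifts was not tested. The median log2 fold change of the list lay between −0.15 and −0.07 in all alternatives. The value of Chn2 lay between −2.17 and −0.26, the latter in limma on log2(FPKM + 5). The mean counts of Gimap4, Gimap6 and Chn2 were at most 48.3 in either group.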
